A study of Mus musculus with 360 samples.

Results

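The genes described here encode parts of the mitochondrial respiratory chain, the mitochondrial ribosome, the machinery that imports proteins into mitochondria, and the enzymes of the Krebs cycle and of pyruvate dehydrogenase. The rule that chose them reads gene symbols only and was set with earlier results of these data known: every probe whose gene symbol begins with Nduf, Uqcr, Cycs, Atp5, Timm, Tomm, Idh2, Idh3, Mdh2, Ogdh or Pdh, with Sdha to Sdhd, with Cox4 to Cox8 or with Mrpl or Mrps and a digit, together with Cs. That rule took 50 probes for 43 genes out of 3154 probes for 2759 symbols in the count table. By role they comprised 15 probes for complex I, 2 for complex II, 1 for complex III, 2 for cytochrome c, 3 for complex IV, 5 for complex V, 11 for the mitochondrial ribosome, 6 for protein import and 5 for the Krebs cycle and pyruvate dehydrogenase. For 6 of the genes there was more than 1 probe, and each probe was treated as a member of its own.

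RNA of the liver, taken from its left lobe, and of kidney, lung, heart and ovary came from female B6D2F1/Crl (BDF-1) mice, a hybrid strain, aged 9 weeks and sampled on study day 5. The mice were exposed to 1,2-dichlorobenzene at 0, 1, 10, 30, 100 or 250 ppm, or to its isomer 1,4-dichlorobenzene at 0, 1, 10, 50, 150 or 400 ppm; the isomers carry their chlorine atoms on neighbouring and on opposite ring carbons. TempO-Seq was used, an assay in which a pair of detector oligonucleotides is ligated on its target RNA, amplified and counted, with a panel of selected genes. Each compound had its own 0 ppm animals, and the 5 tissues of a mouse are separate libraries of the same animal, with 37 mice in the 1,2 series and 35 in the 1,4 series.

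The respiratory chain passes electrons from NADH (complex I) or succinate (complex II) through complex III, cytochrome c and complex IV to oxygen, and complex V uses the resulting proton gradient to make ATP. A small number of subunits are encoded in mitochondrial DNA and made on mitochondrial ribosomes. The rest, and every gene described here, are encoded in the nucleus and translated in the cytosol. Proteins bound for the inside of the mitochondrion are brought in through the TOM complex of the outer membrane and mostly the TIM complexes of the inner membrane. Heart muscle and kidney tubule are rich in mitochondria, and liver cells combine respiration with many mitochondrial biosynthetic steps.

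Nuclear genes for mitochondrial proteins often carry binding sequences of the factors NRF1, GABPA (an ETS factor), YY1 and ESRRA close to their start sites, so the upstream sequences of members that the results below turn on are shown first. The RefSeq promoter table for GRCm38.p6 held windows for 36 of the 43 genes. Each line gives the 150 bases that end just before a start site, 5′ to 3′ on the gene's strand, with a motif match in capitals. Cox6b1, a complex IV subunit (chr7:30626115-30626264, minus strand), has the GABPA letters 28 bases before its start. Cycs, cytochrome c (chr6:50566570-50566719, minus strand), has the NRF1 letters 60 bases before its start. Timm22, the channel of the inner-membrane carrier translocase (chr11:76406775-76406924, plus strand, its upstream-most start), held none of the motifs searched, and Tomm34, a cytosolic co-chaperone of import (chr2:164071170-164071319, minus strand, its upstream-most start), has the GABPA letters 39 bases before its start.
Cox6b1: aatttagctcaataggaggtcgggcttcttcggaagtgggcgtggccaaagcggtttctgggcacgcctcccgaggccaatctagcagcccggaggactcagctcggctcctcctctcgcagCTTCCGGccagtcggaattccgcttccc
Cycs: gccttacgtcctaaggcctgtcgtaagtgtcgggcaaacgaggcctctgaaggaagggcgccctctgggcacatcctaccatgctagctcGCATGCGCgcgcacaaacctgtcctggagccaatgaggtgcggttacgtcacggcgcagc
Timm22: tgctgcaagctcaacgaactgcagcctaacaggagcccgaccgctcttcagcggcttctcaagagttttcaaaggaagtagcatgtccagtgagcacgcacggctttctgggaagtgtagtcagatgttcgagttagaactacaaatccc
Tomm34: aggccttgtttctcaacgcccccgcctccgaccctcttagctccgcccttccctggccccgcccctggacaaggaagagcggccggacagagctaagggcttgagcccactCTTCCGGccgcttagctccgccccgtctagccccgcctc
Over windows of 250 bases before to 50 after the start, read on both strands, the GABPA letters CCGGAAG were in 9 of the 36 genes (25%) and in 9.93% of all 27025 genes of the table. The NRF1 letters GCGCATGC were in 3 genes (8.33%, Cycs, Mrps18b and Sdhb) against 3.05% of all genes. The YY1 letters AAGATGG were in 5 genes (13.9%) against 7.28%, the ESRRA letters AAGGTCA in 2 genes (5.56%) against 5.38%, and the MEF2 letters CTATTTAT in none against 1.27%. These are matches of letters and not measured binding, and genes that rose in liver (Cox6b1, Cycs) and a gene that fell there (Tomm34) are both among those with a match.

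Of 360 libraries, the 326 that the labels mark as used in the submitters' analysis were compared here; the 34 others are returned to in the closing section. A library held 14.12 M to 40.29 M counts in liver, 8.023 M to 23.49 M in kidney, 12.45 M to 46.48 M in lung, 7.818 M to 29.38 M in heart and 4.342 M to 13.09 M in ovary. Groups held 2 to 10 animals, with the fewest in liver at 1 ppm and kidney at 100 ppm of 1,2-dichlorobenzene (2 animals each). Markers of the labelled tissue were high where they should be: summed cardiomyocyte markers were 342400 to 534200 CPM (counts scaled to library size) in unexposed heart and at most 594.1 in any other tissue, and hepatocyte markers were 240200 to 359900 in liver and at most 1722 elsewhere. In heart, 6 libraries had a scaling factor above 1.2 or below 0.8, and animal 405 of the 150 ppm group of 1,4-dichlorobenzene stood furthest apart, with a factor of 1.615 and cardiomyocyte markers of 53220 CPM. Scaled within kidney, hepatocyte markers of the used libraries reached 3475 CPM. Exposed and control animals also differed in Dbp, a clock output gene that follows time of day: in lung, Dbp was 17.33 to 151.6 CPM in the 1,2 controls and 145.9 to 403 at 250 ppm.

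Heart had the highest levels of most of these genes. Over all used libraries, exposed mice included, members took a median of 21.7% of a heart library's counts, 12.8% in kidney, 5.33% in ovary, 3.84% in liver and 2.33% in lung. Such a share is of unscaled counts, and highly counted probes such as Atp5a1 weigh most in it. It was larger in ovary than in liver, whereas on the common scale below 24 members were higher in liver and 2 in ovary. The order of these 2 tissues thus depends on the scaling. In unexposed mice, on a scale common to the 5 tissues, with each tissue set against the mean of the 4 others, heart was higher for 44 and lower for 2 of the 47 members tested, with a median log2 difference of 2.35 against -0.07 over all 2937 probes (edgeR's quasi-likelihood test, adjusted p under 0.05). Of all probes, 40.2% were higher and 39.6% lower in heart. In whole tissue, more cells of a type and more RNA per cell cannot be told apart.

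**Figure D1:**
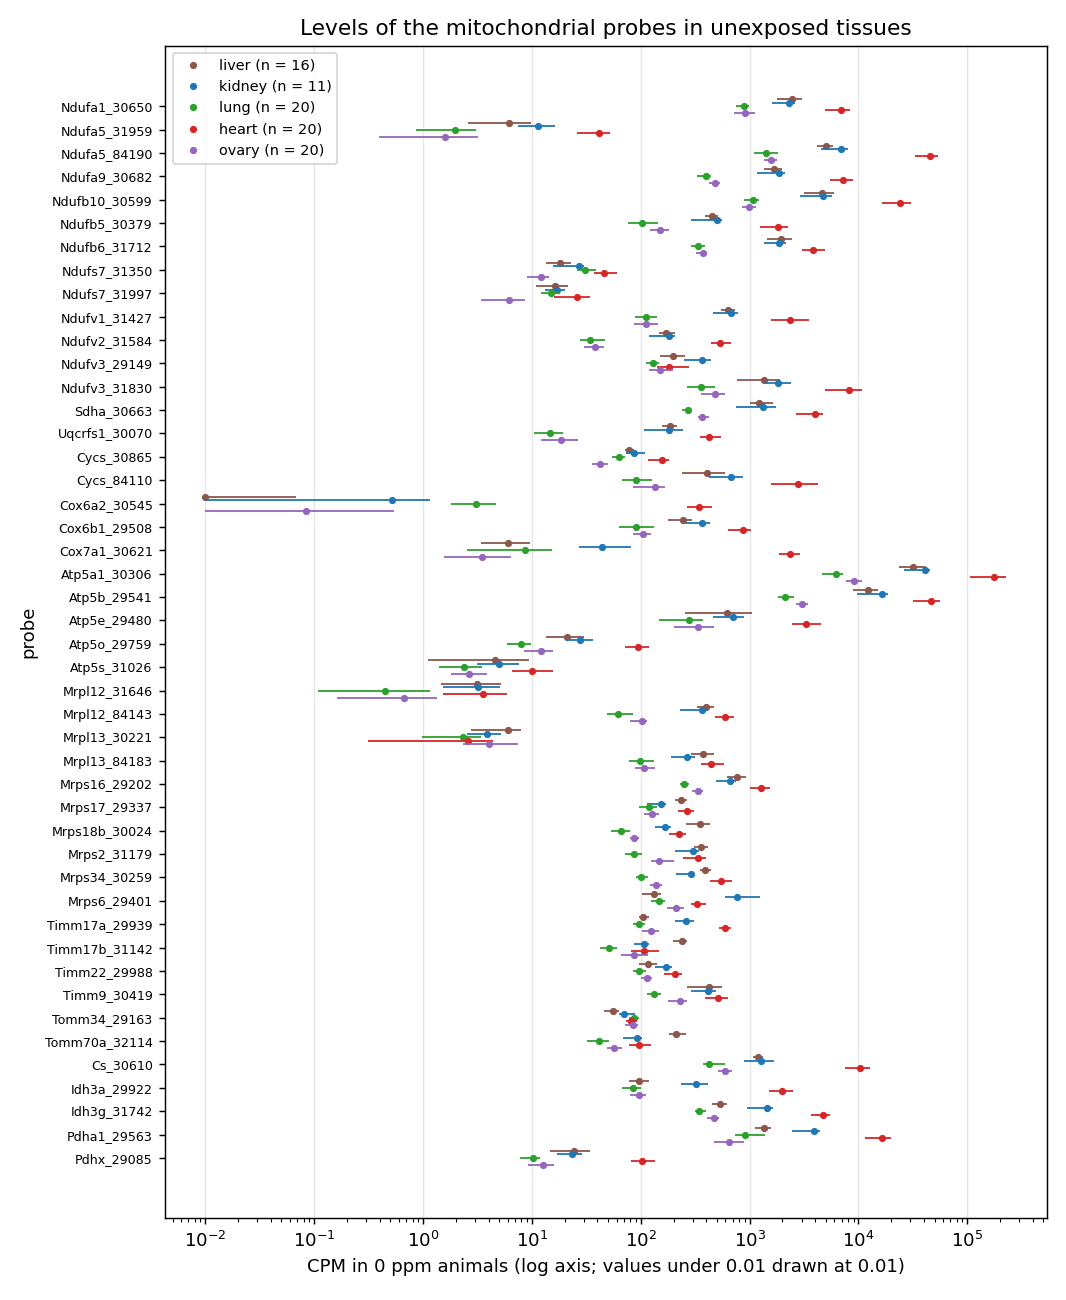
Levels of the members in 0 ppm animals by tissue, as mean CPM (dots) and range over animals (lines) on a logarithmic axis, with 16 liver, 11 kidney and 20 lung, heart and ovary libraries; values under 0.01 are drawn at 0.01, and 1 member is not drawn. Heart has the highest mean for 39 of 47 members, with Cox7a1 and Cox6a2 showing the widest gap between tissues.

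Kidney was higher for 38 and lower for 2 members (median 0.56; all probes 36.3% higher and 36.3% lower). Liver was higher for 24 and lower for 11, with a median of 0.19 where the median of all probes was -0.19 (all probes 39.1% higher and 44.8% lower). Lung was higher for 3 and lower for 43 (median -1.64; all probes 41.6% and 38.6%), and ovary was higher for 2 and lower for 44 (median -1.41; all probes 40.5% and 42.7%). By highest mean, heart led for 39 members, liver for 5, kidney for 2 and lung for 1.

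The gap was widest for complex IV. Cox7a1, the heart and skeletal muscle form of subunit 7a, had a mean of 2338 CPM in heart (range 1843 to 2932, n = 20), 43.8 in kidney, 8.65 in lung, 6.05 in liver and 3.5 in ovary. Cox6a2, likewise the muscle form of its subunit, was at 341 CPM in heart and 3.04 in lung, and was at 0 in most liver and ovary libraries. Liver, lung and ovary overlapped in Cox7a1, so their order is not separated by the spread between animals.

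Atp5a1, Cs and Sdha were also highest in heart on this common scale. Atp5a1, the alpha subunit of the complex V motor, averaged 176700 CPM in heart, 40410 in kidney, 31590 in liver, 9187 in ovary and 6261 in lung, where the kidney range (25940 to 45350) and the liver range (23620 to 41900) overlapped. Cs, citrate synthase, averaged 10250 CPM in heart, 1270 in kidney, 1186 in liver, 597.1 in ovary and 424.8 in lung, with kidney and liver again overlapping. Sdha, the flavoprotein of complex II, was at 3947 CPM in heart and 272.8 in lung, a ratio of 14.5.

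Ribosome and import members were more even. In heart the median log2 difference was 1.05 for the mitochondrial ribosome and 0.49 for protein import, against 2.96 for complex I, 2.89 for complex V and 3.61 for the Krebs cycle and pyruvate dehydrogenase. Liver had the highest mean for Mrps18b, a small-subunit protein, at 351.1 CPM (260.8 to 433.4) against 224.1 in heart (182.6 to 262). Mrps6, another small-subunit protein, was highest in kidney at 760.6 CPM (593.1 to 1247), above every library of every other tissue, and lowest in liver at 133.4. Tomm34 spanned only a 1.55-fold range of means, from 55.5 CPM in liver to 85.97 in lung, and lung, ovary and heart overlapped.

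Probes of 1 gene did not always follow the same pattern. Of the complex I gene Ndufv3, one probe (31830) averaged 8254 CPM in heart and 357.8 in lung, a ratio of 23.1, whereas the other (29149) was highest in kidney (363.3 CPM) and only 1.40 times higher in heart than in lung. The Cycs probes differed likewise, with heart-to-lung ratios of 30.95 (84110) and 2.48 (30865). CPM of different probes are not comparable as amounts, since probes differ in efficiency. The order of tissues within a probe is comparable as far as the common scale holds.

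Members differed from control mostly at the highest concentrations. Liver at 30 and 100 ppm of the 1,2 isomer and heart at 150 ppm of the 1,4 isomer held most of the other calls. In every tissue the median of Dbp was higher at the highest concentration of each isomer than in its controls. Time of collection and exposure therefore cannot be told apart here. Over 50 comparisons of an exposed group with the 0 ppm animals of its compound, members were called in 14. In the 36 others, edgeR's quasi-likelihood test called no member, where 0.622% of all probes were called, 0 to 13 members had an unadjusted p under 0.05, and DESeq2 gave 1 call summed over the lower 1,2 concentrations in kidney and none in the comparisons of 1,4-dichlorobenzene in liver, kidney, lung and ovary below the highest concentration. Comparisons of 1 compound in 1 tissue share their control animals, so calls at neighbouring concentrations are not independent.

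**Figure D2:**
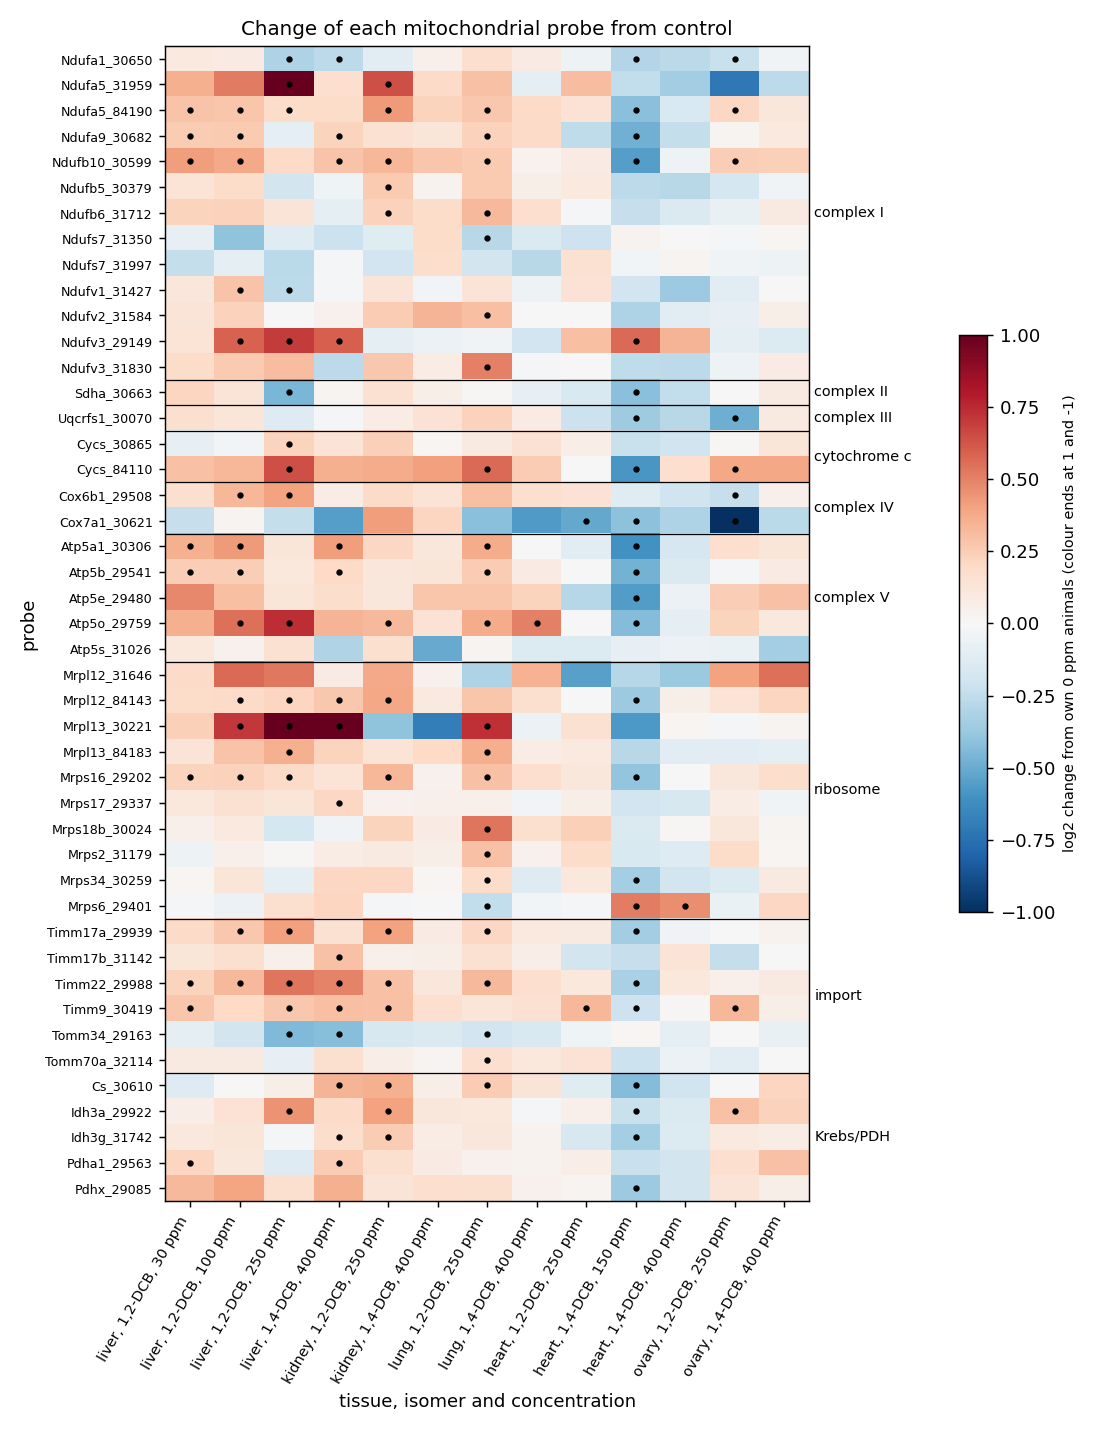
Log2 change from the 0 ppm animals of the same compound (colour, ends at -1 and 1) for the members by role (rows) in 13 comparisons (columns), with a dot where the adjusted p was under 0.05. Cox6a2 and 1 other member are not shown. Dots lie on red (higher) and blue (lower) cells in liver and lung at 250 ppm of 1,2-dichlorobenzene. In kidney they lie on rises alone, and in the 150 ppm column of 1,4-dichlorobenzene in heart mostly on falls.

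In liver at 250 ppm of 1,2-dichlorobenzene, cytochrome c, the import genes Timm22 and Timm17a, the complex V subunit Atp5o and ribosomal proteins rose, while Sdha, Tomm34 and the complex I subunits Ndufa1 and Ndufv1 fell. Of 47 members, 16 were higher and 4 lower, 17 genes in all, beside 25.1% of all probes higher and 24.6% lower. The median log2 change was 0.12 for members and -0.02 for all probes. The animals were 6 exposed and 9 controls.

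Among complex I members, 3 rose and 2 fell of 14. Ndufv3 (probe 29149), a small accessory subunit of the NADH-oxidising module, was at 108.5, 118.9, 148.4, 176.7, 183.2 and 185.1 CPM in the exposed mice and at 74.18 to 122.7 (median 91.23) in controls. It rose by 0.70 on the log2 scale (SE 0.10, adjusted p = 4.66e-08), with 4 of 6 exposed animals above every control. The other Ndufv3 probe (31830) ranged from 337.6 to 1055 CPM against 381.7 to 919.1, a log2 difference of 0.31 (adjusted p = 0.28). Ndufa5 rose on both tested probes, by 0.18 (84190, adjusted p = 0.034) and 1.02 (31959, adjusted p = 0.0017). Ndufa1, a membrane-arm subunit needed for complex I assembly, fell by 0.31 (SE 0.08, adjusted p = 0.00046), from 884.7 to 1255 CPM in controls to 813.3 to 992.3. Ndufv1, which carries the NADH-binding site, fell by 0.26 (adjusted p = 0.0105), a call that was lost with each of 3 exposed animals left out (503, 507 or 508, adjusted p = 0.0675 to 0.0703) and with all libraries (0.112).

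Sdha fell in all 6 exposed mice below the lowest control. Its values were 373.1, 379.7, 395.6, 439.9, 442.7 and 475.2 CPM, against 509.8 to 675.5 (median 566.5) in controls, so the groups did not overlap. The means were 417.7 ± 40.9 (SD, n = 6) and 573.6 ± 46.9 (SD, n = 9), a log2 change of -0.46 (SE 0.10, adjusted p = 5.76e-05). At 1, 10, 30 and 100 ppm its mean was 563, 653.3, 665.6 and 626.9 CPM, none of them called.

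Members of complex III, cytochrome c and complex IV rose or were not called. Cycs (probe 84110) was at 215.9, 246.3, 264.9, 267.2, 289.2 and 289.4 CPM, with 5 of 6 values above the highest control (117.9 to 244.8). It rose by 0.65 (SE 0.14, adjusted p = 0.000114), and its other probe (30865) rose by 0.22 (adjusted p = 0.0068). Uqcrfs1, the Rieske iron-sulphur protein of complex III, differed by -0.13 (adjusted p = 0.26). Cox6b1 of complex IV rose by 0.40 (adjusted p = 0.0017), from 88.49 to 142.7 CPM in controls to 109.8 to 195.1, with overlap. Cox6a2 counted among the rises although every control was at 0 and exposed mice were at 0 to 0.647 CPM, so no fold is given, and DESeq2 did not call it (adjusted p = 0.0583).

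In complex V, Atp5o, a subunit of the stalk that holds the motor, was at 10.97 to 18.17 CPM against 6.41 to 13.05 and rose by 0.74 (SE 0.14, adjusted p = 1.32e-05); the other 4 members were not called, with Atp5a1 at 0.12 (adjusted p = 0.29). Of 10 ribosomal probes 4 rose and none fell. Mrpl13, a large-subunit protein, had 6.724, 6.79, 7.714, 7.821, 8.668 and 11.3 CPM on its low probe (30221) against 1.379 to 3.969 in controls, without overlap, and rose by 1.47 (SE 0.19, adjusted p = 2e-09). Its second probe (84183) rose by 0.35 (adjusted p = 0.014), from 139.3 to 212.6 CPM in controls to 181 to 335.6.

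Import genes moved in both directions. Timm22 was at 74.74, 75.55, 77.12, 79.81, 84.56 and 86.15 CPM in exposed mice and at 45.74 to 59.37 (median 55.34) in controls. All 6 exposed animals lay above all 9 controls, with means of 79.7 ± 4.77 (SD, n = 6) and 55.0 ± 4.01 (SD, n = 9), a rise of 0.54 on the log2 scale (SE 0.07, adjusted p = 8.33e-09). Timm17a, a core subunit of the presequence translocase, rose by 0.41 (SE 0.07, adjusted p = 2.27e-06), again without overlap (56.83 to 75.52 CPM against 46.39 to 56.09). Timm9, a chaperone of the intermembrane space, rose by 0.27 (adjusted p = 0.0066), at 216.3 to 235 CPM against 130 to 233.6, with overlap.

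Tomm34 went the other way. Exposed mice had 18.41, 18.59, 18.97, 20.44, 20.55 and 22.75 CPM, and controls 22.73 to 29.97 (median 27.08). Of 6 exposed values 5 lay below every control, and the gene fell by 0.44 (SE 0.08, adjusted p = 7.3e-06). In the Krebs cycle, Idh3a, the catalytic subunit of NAD-dependent isocitrate dehydrogenase, rose by 0.45 (adjusted p = 0.00013), a call lost with all libraries (0.0566), and Cs was at a difference of 0.06 (adjusted p = 0.36).

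**Figure D3:**
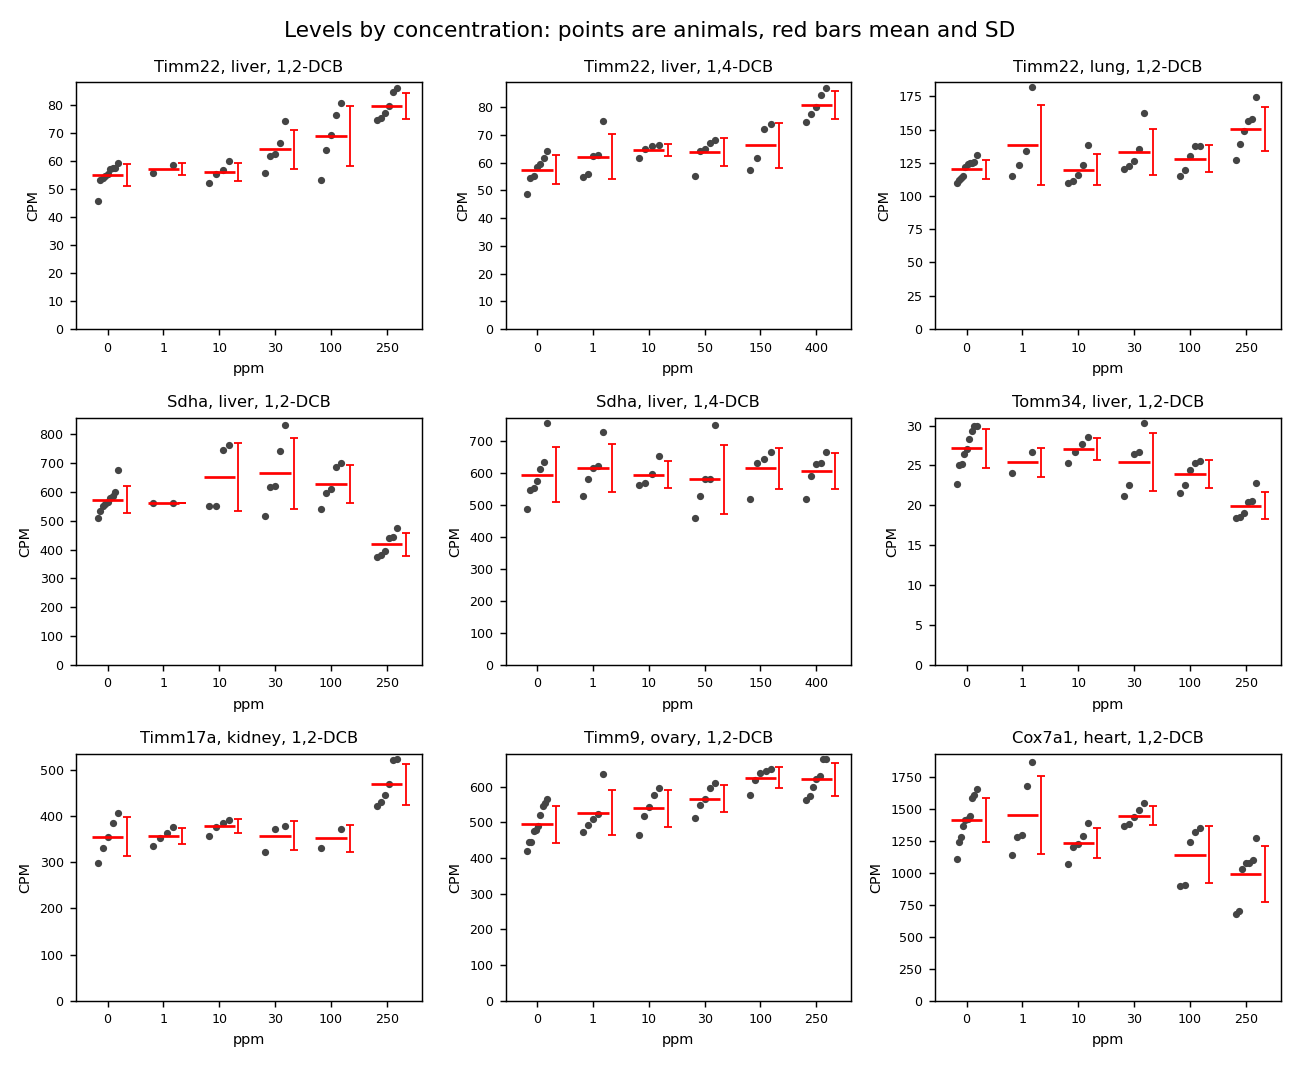
CPM of single animals by concentration in ppm for Timm22 (liver under both compounds, and lung under the 1,2 isomer), Sdha (liver under both), Tomm34 (liver, 1,2), Timm17a (kidney, 1,2), Timm9 (ovary, 1,2) and Cox7a1 (heart, 1,2), with red bars for the mean and SD. In liver the 250 ppm animals lie above all controls for Timm22 and below all controls for Sdha, and no such fall of Sdha is seen at 400 ppm of the 1,4 isomer.

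Rises began at lower concentrations. At 30 ppm 10 members were higher and none lower (6.11% of all probes higher; member median 0.16 against -0.03 for all probes), and at 100 ppm 15 were higher and none lower (12% of all probes higher; median 0.23 against -0.01). Complex I took 4 of these calls at 30 ppm and 6 at 100 ppm. No member was called at 1 or 10 ppm, where 0 and 8 members had an unadjusted p under 0.05.

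Ndufb10, a membrane-arm subunit of complex I, was at 2286, 2704, 2739, 3022 and 3078 CPM at 30 ppm and at 1570 to 2459 (median 2081) in controls, and rose by 0.42 (SE 0.10, adjusted p = 0.0046). It averaged 2692 CPM at 100 ppm (0.38, adjusted p = 0.0061) and 2359 at 250 ppm, where the difference of 0.19 was not called. Ndufa9, an accessory subunit of complex I, was at 861.7, 900.6, 924.9, 936.9 and 948 CPM at 100 ppm, above every control (663.6 to 811.2), and rose by 0.26 (SE 0.05, adjusted p = 0.000134). Timm22 averaged 55.0, 57.3, 56.1, 64.2, 68.8 and 79.7 CPM from 0 to 250 ppm, and was called at 30 ppm (0.22, adjusted p = 0.0465), 100 ppm (0.32, adjusted p = 0.0014) and 250 ppm.

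Some members did not keep 1 direction across concentrations. Ndufv1 differed by 0.28 at 100 ppm (adjusted p = 0.020) and by -0.26 at 250 ppm, and Atp5a1 rose by 0.35 at 30 ppm and 0.42 at 100 ppm but not at 250 ppm. Without control animal 4, whose members lay lowest among the controls, the calls summed over the 4 lower concentrations went from 25 to 15. With the labels' left-out libraries added they went to 11, and with the 1,2 series fitted alone to 13.

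Other liver features moved at 250 ppm of 1,2-dichlorobenzene. Summed hepatocyte markers were 118700 to 172800 CPM in controls and 77060 to 94350 in exposed mice, with 6 of 7 tested probes lower. Summed markers of dividing cells were 45.11 to 65.04 and 401 to 797.4 CPM, with 8 of 8 probes higher. Fibroblast markers were higher for 4 of 4 probes (48.86 to 76.53 against 55.38 to 344.1 CPM), and endothelial and red cell markers were lower for 4 of 4 and 5 of 5. Dbp was 3.92 to 95.22 CPM in controls and 29.95 to 258.9 at 250 ppm. The part of these features in the member changes was not tested. With Dbp as a covariate the count of members called at 250 ppm stayed within 1.5 times of 20. Such a count does not show whether the same members were called. Dbp itself differed between the groups, so the covariate cannot separate time of collection from exposure.

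In liver at 400 ppm of 1,4-dichlorobenzene, Timm22, Cs, Atp5a1 and 1 probe each of Ndufv3 (29149) and Mrpl13 (30221) rose, and Tomm34 and Ndufa1 fell. Of 47 members 15 were higher and 2 lower (18% of all probes higher, 13.6% lower), with a member median of 0.18 against -0.03 for all probes. The groups were 5 exposed animals and 7 controls.

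Timm22 was at 74.9, 77.7, 80.08, 84.54 and 87.12 CPM against 48.62 to 64.23 (median 58.49) in controls, and rose by 0.49 (SE 0.08, adjusted p = 1.6e-06). Tomm34 was at 16.71, 17.91, 19.46, 21.36 and 21.95 CPM against 22.53 to 28.47 (median 26.43), and fell by 0.43 (SE 0.09, adjusted p = 0.000138). Neither gene's groups overlapped. Cs was at 635.8, 695.3, 695.6, 781.5 and 817.9 CPM against 519.1 to 619.2, also without overlap, and rose by 0.34 (SE 0.06, adjusted p = 6.28e-06).

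The further separations in this comparison spanned roles. Ndufv3 (29149) rose by 0.60 (adjusted p = 2.62e-05; 140.2 to 158.6 CPM against 82.12 to 107.3), and Mrpl13 (30221) rose by 1.11 (adjusted p = 1.97e-05; 5.079 to 7.48 against 1.805 to 3.714). Ndufa1 fell by 0.26 (adjusted p = 0.011; 987.4 to 1106 CPM against 1118 to 1389). Timm17b, an import subunit, rose by 0.29 (adjusted p = 0.0045) and Ndufa9 by 0.22 (adjusted p = 0.0010), all 5 without overlap. Members named here were picked by size or p, and the share of all probes without overlap was not counted. Pdha1, the catalytic alpha subunit of pyruvate dehydrogenase, rose by 0.25 (adjusted p = 0.0098), and Atp5a1 by 0.42 (adjusted p = 0.0012), at 19270 to 24650 CPM against 14050 to 19290. The other tested probes of Ndufv3 (31830) and Mrpl13 (84183) were not called. They differed by -0.26 (adjusted p = 0.49) and 0.23 (adjusted p = 0.23).

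Sdha was not called at 400 ppm of 1,4-dichlorobenzene: it ranged from 518.2 to 664.8 CPM against 487.4 to 757.3 in controls, a log2 difference of 0.03 (SE 0.11, adjusted p = 0.88). Cycs (84110) differed by 0.36 (adjusted p = 0.078). These stand beside -0.46 and 0.65 at 250 ppm of 1,2-dichlorobenzene; the concentrations are not matched, and no test between them was made. Cox6a2 was called higher at 0 to 0.2146 CPM against at most 0.0326, and lost the call in 11 of 17 alternatives. In these livers hepatocyte markers were higher for 2 and lower for 3 of 7 probes (140100 to 169300 CPM in controls, 129900 to 151100 exposed) and 8 of 8 dividing-cell probes were higher (52.4 to 74.62 against 247.6 to 386.6 CPM).

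At the lower 1,4 concentrations no member was called in liver, with 5 members at an unadjusted p under 0.05 at 150 ppm. Timm22 averaged 57.44 CPM at 0 ppm and 62.24, 64.76, 63.96, 66.32 and 80.87 from 1 to 400 ppm.

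In kidney at 250 ppm of 1,2-dichlorobenzene, 14 of 47 members rose, for 13 genes, and none fell (6.78% of all probes higher), with a median of 0.19 against -0.02 for all probes. Complex I held 5 of the rises, the import and the Krebs cycle groups 3 each, the ribosome 2 and complex V 1. The comparison rests on 6 exposed and 5 control animals.

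Timm17a was at 422.2, 430.3, 446.6, 468.8, 521.9 and 523.6 CPM against 299 to 407.8 (median 355.4), and rose by 0.40 (SE 0.07, adjusted p = 8.16e-05). Idh3a was at 485.7, 514.7, 550.2, 551.5, 571.9 and 655.4 CPM against 388.6 to 448.7 (median 418.2), and rose by 0.41 (SE 0.09, adjusted p = 0.0022). Ndufa5 (84190), a subunit of the arm facing the matrix, was at 11630 to 14140 CPM against 8507 to 10530 and rose by 0.42 (adjusted p = 0.00034). In all 3 the exposed animals lay above all controls, as they did for Ndufb10, Ndufb5, Idh3g and Timm22, whose log2 changes were 0.33, 0.26, 0.25 and 0.29. These members were picked by size or p, and the share of all probes without overlap was not counted. The other tested Ndufa5 probe (31959) rose by 0.65 (adjusted p = 0.0068).

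Cs rose by 0.35 (adjusted p = 0.0040; 1745 to 2307 CPM against 1575 to 1684), Mrpl12 (84143) by 0.39 (adjusted p = 0.0042) and Mrps16 by 0.33 (adjusted p = 0.0018), each without overlap. Atp5o rose by 0.32 at an adjusted p of 0.0497, a call lost in 11 of 18 alternatives. Sdha, at 1826 to 2013 CPM against 1640 to 1824, lay above all controls but was not called (0.15, adjusted p = 0.34).

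Kidney Dbp was 32.45 to 229.4 CPM in controls and 489.1 to 698.4 at 250 ppm, with no overlap. With Dbp as a covariate 4 members were called (3 higher, 1 lower) in place of 14, and Ndufa5 (84190), Mrps16 and Mrpl12 (84143) were at adjusted p of 0.0592, 0.0592 and 0.172. Leaving out control animal 2 or 8 gave 9 calls. Red cell markers were lower for 5 of 5 probes (37270 to 52190 CPM in controls, 1834 to 21110 exposed), and neither of the 2 tubule probes was called. Summed hepatocyte markers were 1453 to 1781 CPM in controls and 1884 to 2642 at 250 ppm, with no overlap and 1 of 7 probes called higher. The part of these markers in the member changes was not tested.

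In kidney at 400 ppm of 1,4-dichlorobenzene, edgeR's quasi-likelihood test and DESeq2 called no member (1.03% of all probes were called by edgeR), while 10 members had an unadjusted p under 0.05. The median was 0.08, and 41 of 47 log2 differences were above 0.

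In lung at 250 ppm of 1,2-dichlorobenzene, 20 of 47 members rose and 3 fell, for 22 genes (17.6% of all probes higher, 15% lower), with a median of 0.21 against -0.02. Rises were most numerous in complex I (6 of 14) and the ribosome (6 of 10), followed by complex V and import (3 each). There were 6 exposed and 10 control animals.

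Ndufb6, a membrane-arm subunit of complex I, was at 507.4, 536.3, 542.2, 579.9, 581.5 and 646 CPM against 373.3 to 502.3 (median 457.2), and rose by 0.33 (SE 0.07, adjusted p = 7.6e-05). Mrps18b was at 101.9, 103.5, 113.6, 128.4, 138.3 and 174.3 CPM against 70.8 to 103.9 (median 87.71), and rose by 0.53 (SE 0.09, adjusted p = 3.2e-06). The first did not overlap its controls, and 4 of 6 values of the second lay above them. Mrpl13 (84183) rose by 0.36 (147.9 to 178.7 CPM against a control median of 129.3; adjusted p = 0.0014) and Mrps2 by 0.29 (126.7 to 144.8 against 93.23 to 123.6; adjusted p = 0.00053), both without overlap.

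Timm22 rose by 0.32 (adjusted p = 0.00030), at 126.7 to 174.8 CPM against 109.7 to 131.1. Ndufv3 rose on probe 31830 here, by 0.50 (adjusted p = 0.0017), at 530.5 to 1027 CPM against 355.3 to 615.4. Cycs (84110) rose by 0.56 (adjusted p = 0.010), a call lost with all libraries (0.0743). Cs rose by 0.25 (559.9 to 844.1 CPM against 491.5 to 767.2; adjusted p = 0.0039), and without animal 506R its adjusted p was 0.064.

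The falls were small. Ndufs7 (31350), an iron-sulphur subunit of complex I, fell by 0.27 (adjusted p = 0.0056), Mrps6 by 0.25 (adjusted p = 0.023) and Tomm34 by 0.19 (adjusted p = 0.014; 76.73 to 107.8 CPM against 104.3 to 123.4). All 3 calls were lost without animal 506R (adjusted p = 0.051, 0.0814 and 0.105), and the count of members called went from 23 to 11 without that animal, to 14 with all libraries and to 15 with the 1,2 series fitted alone.

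Lung markers moved too. Red cell markers were 224800 to 556900 CPM in controls and 12450 to 237900 exposed, with 6 of 6 probes lower. Dividing-cell markers were 197.1 to 235.2 and 267.8 to 816 CPM, with 8 of 9 probes higher, and 3 of 5 endothelial probes were lower. Their part in the member changes was not tested.

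At other concentrations lung gave few calls. At 100 ppm of 1,2-dichlorobenzene Uqcrfs1 rose by 0.42 (19.46 to 32.7 CPM against 14.64 to 23.17; adjusted p = 0.037) and Mrps2 by 0.23 (adjusted p = 0.044), beside 3.74% of all probes higher. At 30 ppm Ndufv3 (29149) fell by 0.21 (130.6 to 160.3 CPM against 152.1 to 180.4; adjusted p = 0.046), beside 2.29% of all probes lower, a call lost in 14 of 22 alternatives. With Dbp as a covariate, or with the 1,2 series fitted alone, none of the 3 was called. At 400 ppm of 1,4-dichlorobenzene Atp5o alone rose (1.6% of all probes higher), at 10.76, 13.01, 13.26, 14.33 and 18.19 CPM against 7.641 to 11.86, by 0.51 (adjusted p = 0.017); the call was lost without animal 503 (0.181) and with all libraries (0.217).

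In heart at 250 ppm of 1,2-dichlorobenzene, 1 member rose and 1 fell (4.07% of all probes higher, 4.81% lower). Timm9 was at 311.2, 318.6, 344.9, 349.4, 398.8, 399 and 401.1 CPM against 235.7 to 328.3 (median 287.1), and rose by 0.33 (SE 0.07, adjusted p = 0.00053). Cox7a1 was at 678.5, 697, 1028, 1072, 1078, 1097 and 1273 CPM against 1108 to 1656 (median 1416), and fell by 0.51 (SE 0.13, adjusted p = 0.0053). Timm9 had 5 of 7 values above every control and Cox7a1 6 of 7 below. The Timm9 call held in all 25 alternatives, and that of Cox7a1 was lost (0.0539) without the libraries of extreme scaling factor, a set chosen after seeing the data. Red cell markers were lower for 5 of 6 probes in these hearts (57470 to 264800 CPM in controls, 5606 to 63860 exposed) and dividing-cell markers for 2 of 7. Summed cardiomyocyte markers were 212500 to 323100 CPM in controls and 133000 to 307100 exposed, with none of 3 probes called, and Dbp had a median of 56.13 CPM in controls and 253.7 exposed. The part of the markers in the member changes was not tested.

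In heart at 150 ppm of 1,4-dichlorobenzene, 24 of 47 members were lower and 2 higher (11.9% of all probes lower, 15.3% higher), with a median of -0.29 against 0.02. The calls were lost when 1 animal was left out. Falls spanned every role: 5 in complex I, 4 in complex V, 4 in the Krebs cycle and pyruvate dehydrogenase, 3 each in the ribosome and import, 2 in complex IV, and 1 each in complexes II and III and cytochrome c. Without animal 405 no member was called.

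Atp5a1 was at 36360 CPM in animal 405 and at 78250, 84380, 88030 and 88510 in the other 150 ppm mice, against 85130 to 131400 (median 117100) in controls, a fall of 0.61 (SE 0.16, adjusted p = 0.0051). Ndufa9 was at 1903 CPM in animal 405 and at 3188 to 4011 in the others, against 4019 to 5075, and fell by 0.48 (adjusted p = 0.0030), without overlap. Cs, at 3679 to 5963 CPM against 5828 to 7301, fell by 0.43 (adjusted p = 0.0025). So the other 4 animals were also low or at the low edge of the control range for these genes. Mrps6 rose by 0.51 (adjusted p = 0.0023), at 150.7 CPM in animal 404 and 242.9 to 317.7 in the others, against 166.7 to 195.8.

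Leaving out animal 405, all 13 changes named for this group kept their direction and none kept the call. Adjusted p was then 0.104 for Atp5a1, 0.0962 for Ndufa9, 0.0717 for Cs and 0.0519 for Mrps6. Without the 6 libraries of extreme scaling factor, animal 405 among them, 9 members were called at the lower concentrations (1 higher, 8 lower). Summed cardiomyocyte markers were 250200 to 301100 CPM in these controls and 53220 to 227500 at 150 ppm, without overlap, and summed adipocyte markers were 237.3 to 299.9 and 199 to 2515. Fibroblast markers were 562.5 to 860.7 and 845.7 to 2090 CPM. Their part in the member changes was not tested.

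**Figure D4:**
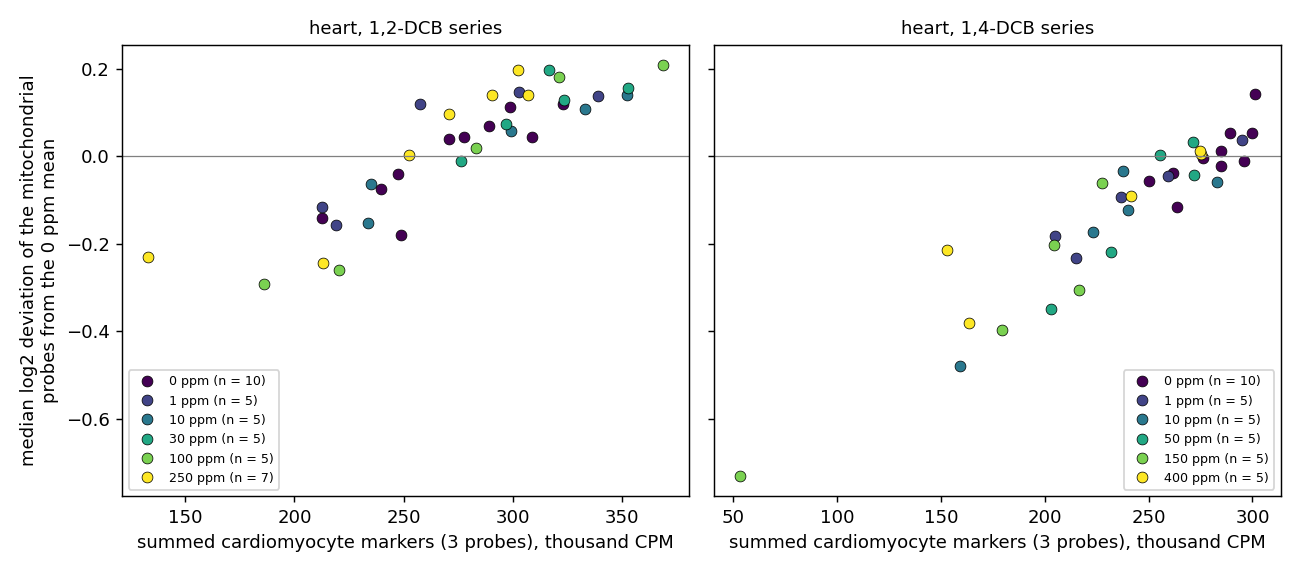
Median log2 deviation of the members from the mean of the 0 ppm animals in each heart library (vertical axis) against the summed CPM of 3 cardiomyocyte marker probes divided by 1000 (horizontal axis), by series and coloured by ppm. In the 1,4 series the 5 animals of the 150 ppm group lie left of all controls, and animal 405 is lowest on both axes, at -0.73.

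Single animals of other 1,4 groups had low heart members as well. The median member deviation was -0.48 in animal 203 (10 ppm), -0.35 in animal 303 (50 ppm) and -0.38 in animal 503 (400 ppm), against -0.11 to 0.14 in controls, and their cardiomyocyte markers were 159300, 202900 and 163400 CPM, each below the lowest control. Another animal at 400 ppm had lower cardiomyocyte markers, 152800 CPM, without the lowest member deviation of that group. At 400 ppm 1 member was higher and 1 lower (8.84% of all probes higher, 4.12% lower; median -0.14). Mrps6 rose by 0.46 (194.2 to 299.8 CPM; adjusted p = 0.0094), a call lost without animal 501 or 503 (0.0703 and 0.0548). Leaving out single animals gave 0 to 5 calls at 400 ppm, and leaving out the libraries of extreme scaling factor gave 1. With Dbp as a covariate 9 members were called at 400 ppm, 8 of them lower. Adipocyte markers were higher for 3 of 4 probes at 400 ppm (237.3 to 299.9 CPM in controls, 212.3 to 1118 exposed), as was the 1 brown adipocyte probe (0.1834 to 1.193 and 0.312 to 319.2 CPM). Fibroblast markers were higher for 2 of 4 probes, at 730.8 to 1651 CPM against 562.5 to 860.7 in controls. The part of these cell markers was not tested.

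In ovary at 250 ppm of 1,2-dichlorobenzene, 5 of 46 members rose and 4 fell (8.22% of all probes higher, 7.7% lower), with a median of -0.004. Timm9 was at 561.8, 572.3, 598.9, 622.5, 629.5, 676.8 and 678.3 CPM against 418.7 to 566.4 (median 483.9), and rose by 0.33 (SE 0.07, adjusted p = 0.00065). Ndufa5 (84190) rose by 0.21 (adjusted p = 0.0047), at 3615 to 4768 CPM against 3197 to 4103. The other tested Ndufa5 probe (31959) differed by -0.72, in the opposite direction, and was not called (adjusted p = 0.10). Timm9 had 6 of 7 values above every control. The calls of Timm9 and Ndufa5 (84190) held in all 24 alternatives.

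Cycs (84110) rose by 0.39 (adjusted p = 0.014), a call lost without animal 503 (0.0628), Idh3a by 0.29 (adjusted p = 0.0071) and Ndufb10 by 0.25 (2091 to 3013 CPM against 1977 to 2608; adjusted p = 0.0099). The falls were Cox7a1 (-1.09, SE 0.31, adjusted p = 0.012), Uqcrfs1 (-0.49; 27.46 to 36.44 CPM against 33.96 to 54.96; adjusted p = 0.0095), Cox6b1 (-0.23) and Ndufa1 (-0.22). Cox7a1 was low in level, at 3.484 to 6.366 CPM against 4.843 to 14.96 in its controls, and the 0 ppm animals of the 1,4 series, at 3.56 to 7.46 CPM, lay near the exposed values.

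With Dbp as a covariate 3 members were called in ovary, and the falls of Cox7a1 (adjusted p = 0.524) and Uqcrfs1 (0.397) were not among them. Ovary Dbp was 86.42 to 272.4 CPM in controls and 243.4 to 493.7 at 250 ppm. The calls of Cox6b1 and Ndufa1 were each lost in 9 of 24 alternatives. Red cell markers were lower for 3 of 4 probes (3103 to 20740 CPM in controls, 269.5 to 5851 exposed), ovarian markers for 2 of 10, and endothelial and fibroblast markers for 2 of 4 each. Adipocyte markers were higher for 2 of 4 probes (92.53 to 2492 and 279.9 to 2290 CPM) and dividing-cell markers for 2 of 8, and of 7 leukocyte probes 2 were higher and 1 lower. The part of these markers in the member changes was not tested. At 100 ppm Timm9 alone rose (0.0369% of all probes higher), at 577.6, 619, 638.1, 642.4 and 648.3 CPM, above all controls, by 0.34 (adjusted p = 0.044), a call lost in 14 of 22 alternatives. At 400 ppm of 1,4-dichlorobenzene, edgeR's quasi-likelihood test and DESeq2 called no member (0.479% of all probes were called by edgeR), with 9 members at an unadjusted p under 0.05.

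Across the highest concentrations of both compounds in the 5 tissues, Timm9 rose in 5 of 10 comparisons and Timm22, Ndufa5 (84190), Ndufb10 and Atp5o in 4. These are the most frequent of the members, and how many of all probes rose as often was not counted. In the comparisons where any of these members rose, 1.6% to 25.1% of all probes rose. In kidney and ovary at 400 ppm of the 1,4 isomer, where no member was called, 17 of 2729 and 10 of 2713 probes rose. The other tested Ndufa5 probe (31959) rose in 2 of 10 comparisons. The Atp5o calls in kidney and in lung at 400 ppm were each lost in some alternatives, as given above. Tomm34 and Ndufa1 fell in 3, and Cox7a1 in 2. Cox6b1 rose in liver and fell in ovary, and Mrps6 rose in heart at 400 ppm of the 1,4 isomer and fell in lung at 250 ppm of the 1,2 isomer. Tissues of 1 mouse share the animal, so these counts are not independent between tissues.

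Changes in liver were set against those in each other tissue by testing the difference itself in a fit of both tissues. At 250 ppm of 1,2-dichlorobenzene the liver change was higher for 3 and lower for 10 of 48 members against kidney (31.8% of all probes called), 2 and 22 of 48 against lung (38.6%), 5 and 9 of 47 against heart (32.4%) and 7 and 7 of 48 against ovary (33.2%). That fit scales both tissues together, and the median of all probes was -0.20 for liver minus lung, beside -0.33 for members. At 400 ppm of 1,4-dichlorobenzene the counts were 4 and 1 against kidney (15.5%), 3 and 3 against lung (24.6%), 8 and 1 against heart (23%) and 4 and 1 against ovary (15.5%), with all-probe medians of -0.21 for lung and -0.11 for heart.

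Sdha had a lower change in liver than in all 4 other tissues at 250 ppm of the 1,2 isomer. The difference was -0.62 (SE 0.14, adjusted p = 0.00028) against kidney, -0.70 (SE 0.13, adjusted p = 2.68e-06) against lung, -0.40 (SE 0.15, adjusted p = 0.025) against heart and -0.56 (SE 0.11, adjusted p = 2.29e-05) against ovary. Tomm34 likewise differed by -0.29, -0.48, -0.50 and -0.55 from kidney, lung, heart and ovary, and Mrps18b by -0.41, -0.94, -0.51 and -0.39, all called. Mrpl13 (30221) had a higher change in liver than in kidney (1.86), heart (1.21) and ovary (1.37).

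The isomers were compared at the matched concentrations of 1 and 10 ppm, by subtracting 1 isomer's change from the other's in each tissue, which made 10 comparisons. No member was called by edgeR's quasi-likelihood test (0.321% of all probes were called; 0 to 4 members a comparison had an unadjusted p under 0.05), and DESeq2 called 1, in kidney. For Timm22 in liver at 10 ppm the 1,2 minus 1,4 difference was -0.14, with an interval of about 2 standard errors each side from -0.38 to 0.09. A missed threshold does not show that the isomers act alike.

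The 0 ppm animals of the series were also compared. In liver, kidney and lung edgeR called no member (0.606% of all probes over the 3 tissues; 3 to 11 members at an unadjusted p under 0.05), and DESeq2 called 1 in liver and 1 in kidney. In heart Idh3a was lower in the 1,2 controls (911 to 1203 CPM against 1176 to 1450; -0.27, adjusted p = 0.0223; 1.02% of all probes lower). In ovary 3 members were higher in the 1,2 controls (4.42% of all probes higher), among them Timm17b and Cox7a1, by 0.33 and 0.86. Leaving out single animals took these counts to 0 to 1 in heart and 1 to 3 in ovary.

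Genes outside the rule that serve the same organelle were read from lists of related function, beside 25.1% of all probes higher and 24.6% lower in liver at 250 ppm, 18% and 13.6% in liver at 400 ppm, 17.6% and 15% in lung at 250 ppm, and 6.78% higher in kidney at 250 ppm. Of 6 mitochondrial antioxidant probes tested, 4 rose and 1 fell in liver at 250 ppm of the 1,2 isomer, led by Gpx4, which removes lipid peroxides (0.98), and Prdx3, a mitochondrial peroxiredoxin (0.64), while Txnrd2, the mitochondrial thioredoxin reductase, fell by 0.56. In liver at 400 ppm of the 1,4 isomer 5 of 6 rose and in lung at 250 ppm 5 of 6, with Gsr, glutathione reductase, at 0.71 and 0.83. Kidney at 250 ppm had 3 rises, and ovary had 1 fall (Prdx3, -0.29).

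Of 11 probes of the mitochondrial stress response, 6 were lower and 1 was higher at 250 ppm in liver, among them Clpx, the unfoldase of a matrix protease (-1.58), Atf5 (-0.85) and Atf4 (-0.50), transcription factors of that response, and Fgf21, a hormone secreted by the liver (-3.16). At 400 ppm of the 1,4 isomer 2 fell and 1 rose, the rise being Gdf15 (1.46). Of 8 probes for regulators of mitochondrial gene expression, Myc rose by 1.73 and Ppara and Sirt3 fell by 0.81 and 0.51 in liver at 250 ppm, shares near or below those of all probes. In the list of mitochondrial dynamics and mitophagy 3 of 10 probes rose at 250 ppm in liver and 2 fell, and Vdac1, the main outer-membrane channel, rose by 0.37 at 250 ppm and 0.41 at 400 ppm in liver. Of 12 probes for glycolysis and pyruvate use, Tpi1 and Gapdh rose in liver at 250 ppm, by 0.69 and 0.50, and Mpc2, a subunit of the mitochondrial pyruvate carrier, fell by 0.55, shares below those of all probes.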

How the data were processed

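The authors deposited raw counts for each TempO-Seq probe, 1 column per library. The submitters' processing notes name Bowtie 1.3.1; its reference sequences are not given in the sources used here. For 59 probes every deposited count was a whole multiple of a number above 1 (6 for Atp5b and 14 for Atp5a1), so the authors' counts were read as scaled for them. Groups were tissue, compound and concentration as labelled, a replicate is 1 animal, and the 34 libraries not marked as used were left out. The labels flag each of these 34 for quality, and the alternative with all libraries adds them back. No pair of same-group libraries was identical.

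In R 4.3.3, each tissue was fitted with edgeR 4.0.16 (quasi-likelihood test, TMM scaling, filterByExpr over 12 groups); 47 members passed the filter in liver, kidney, lung and heart and 46 in ovary, while 3 probes (Ndufa5 29432, Sdhb 30934, Mrpl19 30369) passed in none. Tests were two-sided, adjusted by the Benjamini-Hochberg method over all probes of a comparison, and called under 0.05. CPM use the same scaling, set within a tissue except where tissues are compared. Alternatives were DESeq2 1.42.0, its size factors within edgeR, no filter on low counts, all libraries, 1 compound alone, no scaled probes, Dbp as a covariate, single animals left out and, between tissues, the animal as a block. In a paired check, tissues of 1 animal deviated together slightly (median correlation with liver 0.0541 to 0.109, against -0.0226 to -0.0056 between animals); the pairing comes from the labels' animal numbers. The code was tested on simulated data.

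Members and gene lists were chosen with earlier results of these data known. Named were all called members where at most 8 were called, and otherwise the 5 largest rises and falls whose mean was 20 counts or more and the smallest p of each role, with values of named members followed elsewhere. Where named members are said not to overlap their controls, the share of all probes without overlap was not counted in any comparison. Reads carry no molecular identifiers, and depth limits the low probes (Cox6a2, Cox7a1 outside heart, Mrpl13 30221). A few single-gene results are not reported here.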

Additional observations from a re-analysis of the deposited data

Results flagged for a closer look

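In 4 of 57 groups tested, 1 animal stood apart from its group in the median log2 deviation of the members from the control mean, by Dixon's criterion, which chance alone meets in about 1 in 20 groups. These were the 0 ppm kidney of animal 2 in the 1,4 series (-0.3412), the 0 ppm liver of animal 4 in the 1,2 series (-0.1927), and the lungs of animals 102 (1 ppm, -0.1591) and 302 (50 ppm, 0.0488) in the 1,4 series.

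The change from control differed between liver and another tissue, by a test of the difference itself, for 13 members against kidney, 24 against lung, 14 against heart and 14 against ovary at 250 ppm of 1,2-dichlorobenzene. Of all probes, 31.8%, 38.6%, 32.4% and 33.2% differed in these comparisons. At 400 ppm of 1,4-dichlorobenzene it differed for 5 members against kidney, 6 against lung, 9 against heart and 5 against ovary, beside 15.5%, 24.6%, 23% and 15.5% of all probes.

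Of the 34 libraries that the labels mark as not used, 5 had a median member deviation above the range of the used controls, 4 below it and 25 within it. Those above were the 1,2 series' liver of animal 105 (1 ppm, 0.7287), kidneys of animals 402 (100 ppm, 0.0763) and 501 (250 ppm, 0.2517) and lung of animal 104 (1 ppm, 0.2245), and the 1,4 series' kidney of animal 1 (0 ppm, 0.1464). The labels flag that liver and that lung as outliers by PCA or correlation, and these kidneys for potential tissue contamination. Of all left-out libraries, the labels flag 16 kidneys for contamination, and 9 livers and 1 kidney for sequencing depth under 300000. As outliers they flag 3 kidneys, 2 livers and 1 lung, and for alignment under 40% 1 kidney and 1 lung.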

How the results depend on the processing

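No change of a named member reversed under any alternative. Of 2602 values for 221 named changes, 2312 stayed on their side of the threshold and 290 lost the call. These values are pooled over changes and alternatives. The share of named changes past the threshold in every alternative was smaller than the share of values that stayed on their side. DESeq2's size factors moved no count of members called by over 1.5 times. With all libraries the counts were 13 for liver at 250 ppm (20 in the report), 14 for lung at 250 ppm (23), 0 for lung at 400 ppm (1), 11, 1, 7 and 18 for the lower concentrations in liver under the 1,2 and 1,4 isomers and in kidney and lung under the 1,2 isomer (25, 0, 0 and 3), 2 and 2 for the isomers in liver and lung (0), and 7, 2, 5 and 3 for liver against heart under the 1,2 isomer and against lung, heart and ovary under the 1,4 isomer (14, 6, 9 and 5). With 1 compound fitted alone they were 15 for lung at 250 ppm, 3 for lung at 400 ppm, and 13 and 0 for the lower 1,2 concentrations in liver and lung. With Dbp as a covariate they were 4 for kidney and 3 for ovary at 250 ppm (14 and 9), 9 for heart at 400 ppm (2), 0, 0 and 1 for the lower concentrations in lung and ovary under the 1,2 isomer and ovary under the 1,4 isomer (3, 1 and 0), and 1 for the kidney controls (0). DESeq2 gave 1, 5 and 2 for the lower 1,2 concentrations in kidney, lung and ovary, and 1 each for the isomers in kidney and the controls of liver and kidney. Without a filter on low counts lung and ovary gave 1 and 0 at the lower 1,2 concentrations. Without scaled probes the ovary controls gave 1 and liver against heart under the 1,4 isomer gave 5. Without the heart libraries of extreme scaling factor, a setting added after seeing the data, the heart gave 1 at 400 ppm, 9 at the lower 1,4 concentrations (26) and 2 between controls (1). The causes of these shifts were not tested.

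Leaving out 1 animal at a time gave 9 to 15 for kidney and 11 to 25 for lung at 250 ppm, 0 to 5 for heart and 0 to 1 for lung at 400 ppm, 15 to 28, 0 to 7 and 0 to 2 for the lower 1,2 concentrations in liver, lung and ovary, 0 to 36 and 0 to 1 for the lower 1,4 concentrations in heart and ovary, and 0 to 1, 0 to 1, 0 to 1 and 1 to 3 for the controls of liver, kidney, heart and ovary. With the animal as a replicate block, the counts for liver against kidney, lung, heart and ovary were 15, 27, 15 and 15 under the 1,2 isomer and 4, 5, 8 and 5 under the 1,4 isomer, and the block moved none of 13 counts by over 1.5 times. Comparisons within a tissue have 1 library per animal, so no paired fit applies there.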
